A study of Mus musculus with 6 samples.

Results

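Wide peaks that lie inside protein-coding genes but ahead of their 3′ ends were taken from the list of AGO2 target peaks of mouse cortex. A peak was counted here when it was wider than 30 nt, lay off the mitochondrial genome and outside small noncoding RNA genes, and had its midpoint in 1 protein-coding gene span, within the first 90% of that span, counted in the direction of the peak's own strand. The rule found 299 of the 2197 peaks, in 180 genes. They are called upstream peaks below, and the 989 wide peaks in the last 10% of a span, in 529 genes, are called end peaks. The peaks were thus chosen by their measured width and position, so both are given as a description with no test. The list carries no value per library and a score of 0 for every peak, so no value of a peak has a replicate check.

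The study pulled down AGO2 from cortex of mice at postnatal day 14 and made 6 libraries in 3 groups of 2 replicates: miRNA held by AGO2, target RNA held by AGO2, and whole lysate as input. All libraries came from VGLUT2-Cre;Spy3-AGO2 mice, so the Spy3-AGO2 allele is conditional on Cre from the gene of VGLUT2, a vesicular glutamate transporter, and no group lacks it. The cell type is labelled as pyramidal neurons, which are glutamatergic, but whole cortices were lysed and the labels give neither the number of mice nor whether replicates were separate animals.

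AGO2 is the protein that carries a miRNA to its target RNA. Animal miRNAs pair through their seed, bases 2 to 8, mostly with sites in 3′ untranslated regions, and such sites are the ones best known to lower protein output. Pairing within coding sequence also occurs and is in general linked to weaker repression. Noncoding RNAs, among them circular RNAs, can hold miRNAs too.

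Only 2 upstream peaks lay whole within a window of the RefSeq promoter table, which holds 250 bases before to 50 after each listed start (GRCm38.p6). They are shown because their bases can be read, and because each sits at the start of a lncRNA inside the protein-coding gene. The first is in the span of Clasp1, a gene of a microtubule plus-end protein, at chr1:118459225-118459260 on the minus strand, and it covers bases 6 to 41 of the lncRNA 2900060B14Rik on the same strand. As background, U4atac, an RNA of the minor spliceosome, is encoded within an intron of Clasp1 in mammals. The gene table lists no small RNA at the place of the peak, so the rule kept it. Whether its sequence is that of U4atac was not tested, and a peak in a small RNA gene would fall outside the rule. The second is in the span of Apba1, a gene of a presynaptic adaptor protein, at chr19:23917554-23917584 on the plus strand, opposite to the lncRNA Gm34076. Capitals mark bases inside the annotated lncRNA, which are all 36 in the first peak and 4 of 31 in the second.

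Clasp1 peak: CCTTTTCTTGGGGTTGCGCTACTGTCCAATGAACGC

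Apba1 peak: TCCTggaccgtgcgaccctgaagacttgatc

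Not every upstream peak read as a peak of the gene that names it. The gene span table has no strand, so strand was taken from the promoter table, which lists 132 of the 180 genes. In those genes 171 of 180 upstream peaks ran along the strand of the gene and 9 (5.00%, exact 95% interval 2.31 to 9.28, counting error only) ran opposite to it. Among end peaks 1 of 745 ran opposite (0.134%). Peaks of 30 nt or less in the same upstream stretch of genes behaved otherwise: 97 of 183 with a known gene strand ran opposite. The remaining 119 upstream peaks lay in genes whose strand is not in that table.

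Cdr1, on chromosome X from 61183246 to 61185558, held 3 upstream peaks, all opposite to its minus strand. They lay at 61183600 to 61183704, 61183737 to 61183897 and 61184056 to 61184177, and were 105, 161 and 122 nt wide. A circular RNA known for its many sites for miR-7 is made from the strand opposite Cdr1. The table gives the antisense gene Cdr1os a span of 61116378 to 61139460, which ends before these peaks, so they were assigned to no antisense RNA. miR-7 itself was present in the AGO2-bound miRNA libraries. miR-7a-5p took 141 and 156 counts (0.209% ± 0.00333 of all counts, SD, n = 2) and miR-7b-5p 60 and 69 counts (0.0905% ± 0.00103, SD, n = 2). The 2 miRNAs share their seed, shown in capitals.

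miR-7a-5p: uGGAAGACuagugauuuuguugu

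miR-7b-5p: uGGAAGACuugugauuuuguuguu

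Whether the Cdr1 peaks hold sites for this seed was not tested, since no sequence of that place was used. miR-671-5p, known to cut the circular RNA, had 6 and 3 counts.

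Rtl1, an imprinted gene of retrotransposon origin on chromosome 12 (109564900 to 109604418), was credited with 8 upstream peaks, all on the plus strand and within 8.52% of the span start. All 8 also lie in the span of Meg3, a lncRNA on the plus strand (109540996 to 109571729). The strand of Rtl1 is not in the table, but Rtl1 is known to be read from the other strand, so its 8 peaks are described here by position only. The other 6 opposite peaks lay in Tspan5, Zbtb8a, Dcaf10, Copg2, Itga9 and Gnb1l, with 1 each, and were 38 to 65 nt wide. Without Rtl1 and Cdr1 the set holds 288 peaks in 178 genes.

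In all, 21 upstream peaks overlapped a noncoding gene span, from 13 noncoding genes. Where the strand of the noncoding gene was known, 11 of 19 overlaps were on its strand. These were the 8 in Meg3, the one in 2900060B14Rik and 2 in Gm16582, which spans the small gene Cdk5r2, an activator of the kinase Cdk5. The peak of Grin1 at 25298395 to 25298477 on chromosome 2 overlapped Grin1os, on the strand opposite to the noncoding gene. One peak of Peg3, an imprinted zinc finger gene, overlapped Peg3os, whose strand is not listed.

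The width of upstream peaks ran from 31 to 269 nt and its median was 72 nt (95% interval of the median 66 to 75, which covers counting error only), and they covered 24633 bases. For end peaks it ran from 31 to 407 nt, and the median was 64 nt (62 to 66). Peaks above 100 nt made up 27.1% of upstream peaks and 21.1% of end peaks. Within the upstream set, medians along the gene were close, at 71.5 nt in the first 50% of the span, 73.0 nt from 50% to 80% and 70.0 nt from 80% to 90%. The widest lay in Adgrl1, a latrophilin adhesion receptor gene (269 nt, at 70.7% of the span), Fbxl16, an F-box protein gene (231 nt, at 74.2%), Zbtb18, a transcriptional repressor gene (227 nt, at 74.5%), and Cnp, a myelin enzyme gene (204 nt, at 35.8%). Other wide ones lay in Plppr4 (196 nt), the proton pump gene Atp6v0a1 (194 nt), Rtl1 (192 and 184 nt) and Cyfip2 (174 nt, as in Serinc1), a partner of the fragile X protein.

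The width threshold separates sets of different make-up. Over all peaks in 1 protein-coding span, the share in the first 90% was 81.7% of 93 peaks of 26 to 30 nt (exact 95% interval 72.4 to 89.0) and 18.3% of 60 peaks of 31 to 35 nt (9.52 to 30.4). Above that it stayed between 13.6% and 29.4% in every width class. The count of upstream peaks just inside the threshold, at 31 to 35 nt, was 11, and the count just outside, at 26 to 30 nt, was 76. Just inside were Apba1, Calm2 and the actin-binding peptide gene Tmsb4x at 31 nt, and Aak1 and Slc22a19 at 32 nt. Just outside, at 30 nt, were Camk2n1, Itm2b, Kdm2b, Pcdh15 and Phip. Of the 236 narrow peaks in upstream positions, 12 lay in a gene that also had a wide upstream peak.

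**Figure D1:**
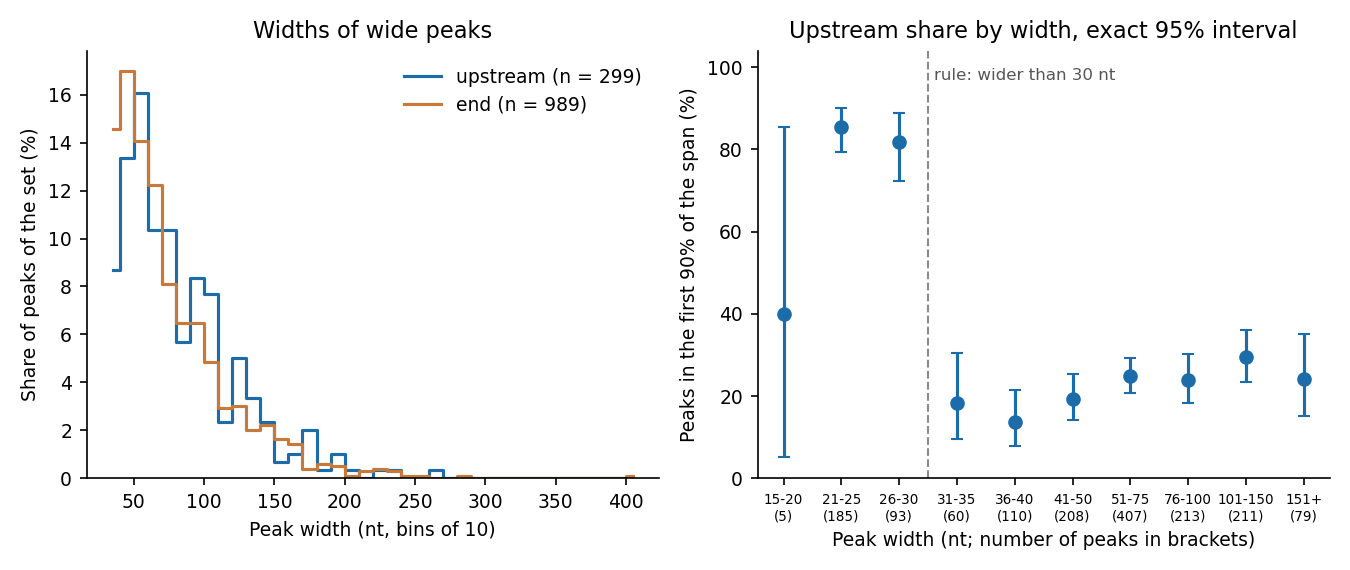
Left, widths of upstream (n = 299) and end (n = 989) wide peaks in bins of 10 nt, as a share of each set. Right, share of peaks of each width class that lie in the first 90% of their gene span, with exact 95% intervals (counting error only), which drops from 81.7% at 26 to 30 nt to 18.3% at 31 to 35 nt.

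Upstream peaks were more frequent toward the 3′ end. In steps of 10% of the span their number was 15, 9, 11, 20 and 17 up to 50%, then 39, 44, 60 and 84, against 989 end peaks in the last 10%. The 15 in the first step include the 8 peaks of Rtl1, which lie on the strand of Meg3. The median lay at 69.5% of the span (95% interval 64.9 to 71.4), and 75.9% lay beyond 50%. Strands were close to even, with 159 of 299 on the plus strand (53.2%). Upstream peaks fell on 20 chromosomes, with the most, 27, on chromosome 12, among them the 8 of Rtl1.

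Many upstream peaks were close to the end of the gene in bases. The median distance from the end of the span was 5834 nt (95% interval 4459 to 7329), against 672 nt for end peaks. Of the 299, 139 (46.5%) lay within 5000 nt of the end and 66 (22.1%) within 2000 nt, distances that 92.4% and 75.5% of end peaks also kept. The last 10% of a short gene is a short stretch, so the rule counts as upstream a peak that in a long gene would count as an end peak. Spans up to 10000 nt held 30.4% of upstream peaks and 8.49% of end peaks, and spans above 100000 nt held 15.7% and 40.2%. The peak of Bmyc, for example, lay at 89.9% of the span and 85 nt from its end. Exons and untranslated regions are not in the table used, so how many upstream peaks lie in a 3′ untranslated region was not tested.

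At the position threshold, 18 wide peaks lay between 88% and 90% and 32 between 90% and 92% of the span. Those nearest inside were in Ywhah (89.93%), Adgrl1 (89.87%), the neuronal tubulin gene Tubb3 (89.86%), Bmyc (89.86%) and Map2 (89.85%), and those nearest outside in Slc1a2 (90.02%), Tbr1 (90.08%), Tspan7 (90.11%), Scd2 (90.12%) and Prkar1a (90.22%). The peak of Map2, a dendritic microtubule protein gene, was 27127 nt from the end of its span.

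**Figure D2:**
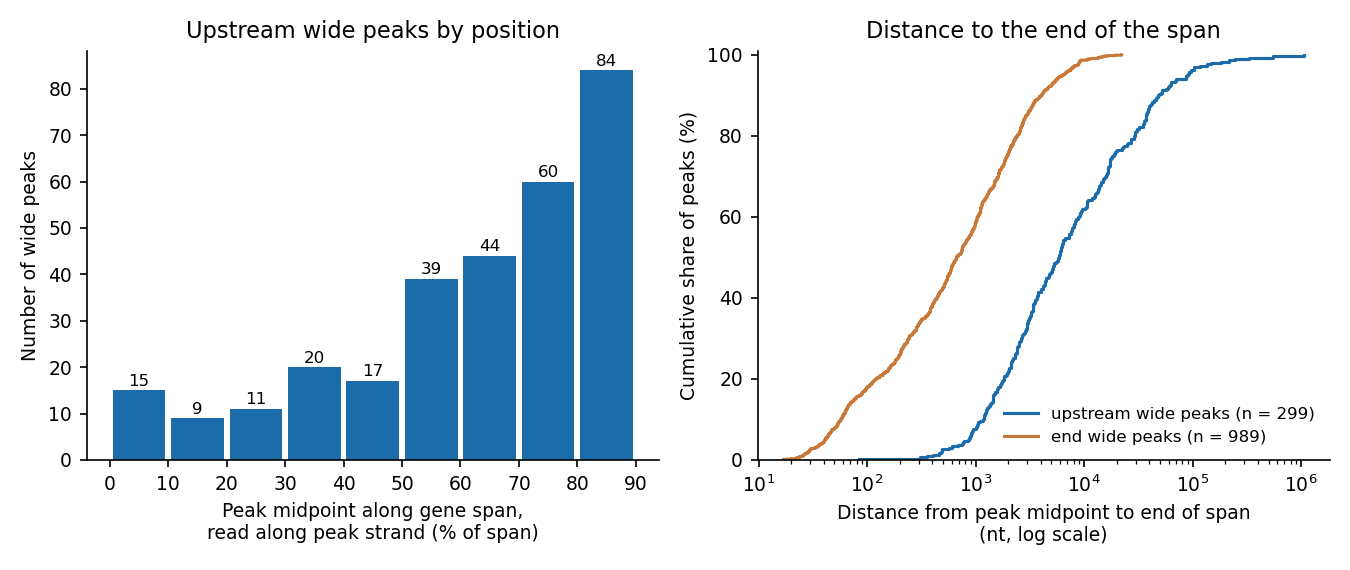
Left, number of upstream wide peaks in steps of 10% of the gene span, which reaches 84 between 80% and 90%. Right, cumulative share of upstream (n = 299) and end (n = 989) wide peaks by distance from the end of the span on a log axis, with medians of 5834 and 672 nt.

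A small number of peaks lay deep within long genes or near a gene start. Far from the end of their span were peaks in Gphn, the scaffold of inhibitory synapses (333676 nt from the end), Kalrn, an exchange factor for small GTPases in dendritic spines (243144 and 183366 nt), Nell2 (215684 nt), the BDNF receptor gene Ntrk2 (148086 nt) and the ankyrin gene Ank2 (135437 nt). Near a span start by share, beside the peaks of Rtl1, were peaks in Il31ra (3.43%) and in Trrap (4.09%), a scaffold of histone acetyltransferases. Of the 171 peaks on the strand of their gene, 3 lay within 500 nt after a listed start: in Tmsb4x (96 nt), the proton pump gene Atp6v0c (122 nt) and the ferritin heavy chain gene Fth1 (285 nt). A further 3, in Taco1, Bmyc and the creatine kinase gene Ckb, lay within 1000 nt, and the median was 9402 nt. Such a peak need not lie early in its span. Those of Tmsb4x, Atp6v0c, Fth1 and Bmyc were at 68.2%, 6.03%, 51.7% and 89.9% of the span.

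Small RNA genes lay within 300 nt of 5 upstream peaks, in 3 genes. In Atp5b, peaks at 128084296 to 128084366 and 128084395 to 128084464 of chromosome 10 were 79 and 178 nt from the snoRNA gene Snord59a, and a peak at 128085095 to 128085213 was 72 nt from Mir677. One Camk2a peak was 2 nt from Mir6982, and 1 Scd2 peak was 25 nt from Mir5114. miR-677-5p, miR-677-3p, miR-6982-5p, miR-6982-3p and miR-5114 each had 0 counts in both miRNA libraries. An approximate upper limit of 3 counts was taken for a 0. This is 0.00449% of 66854 counts in replicate 1 and 0.00397% of 75658 in replicate 2.

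Upstream peaks were spread unevenly over genes, as were end peaks. Peaks that were the only 1 of their kind in the gene made up 41.5% of upstream and 35.5% of end peaks. Of the 180 genes, 124 held 1 and 56 held more, and the 12 genes with the most held 72 of the 299 (24.1%). At least 3 were held by 25 genes, or 0.114% of the 21887 protein-coding genes of the table.

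Camk2n1, which encodes an inhibitor of the calcium-dependent kinase CaMKII, held 9 upstream peaks and 0 end peaks. They lay on the plus strand of chromosome 4, from 138456717 to 138458139, were 38 to 96 nt wide and covered 42.9% of that stretch. In a span of 4979 nt this placed them at 32.3% to 59.3%, 2024 to 3369 nt from the end. No wide peak lay between them and the end of the span.

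Sparcl1, a secreted matrix protein gene strongly expressed in astrocytes, held 8 upstream and 4 end peaks. The upstream peaks fell into 2 stretches of the minus strand of chromosome 5, 4 peaks from 104085013 to 104087065 and 4 from 104092384 to 104093305, and were 43 to 101 nt wide. Cpe, the carboxypeptidase that trims neuropeptide precursors, had 5 (34 to 95 nt) between 73.2% and 83.5% and 6 end peaks. Serinc1, a membrane protein gene of the serine incorporator family, had 4 upstream peaks that were all wide, at 138, 144, 158 and 174 nt.

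Eif4g2, a translation initiation factor gene, had 4 upstream peaks of 84 to 110 nt between 30.3% and 57.4% of its span and 0 end peaks. Atp5b, the beta subunit of the mitochondrial ATP synthase, had 4 of 66 to 119 nt between 14.5% and 43.5%, also with 0 end peaks. Atp2a2, whose calcium pump refills the endoplasmic reticulum, had 4 from 26.6% to 83.4% and 10 end peaks. The glutamate transporter gene Slc1a2 had 4, all 29703 to 46896 nt from the end of its span, beside 38 end peaks. Slc17a7, the vesicular glutamate transporter of cortical excitatory neurons, had 4 short ones (34, 46, 47 and 55 nt) between 49.1% and 67.2% and 1 end peak. Calm2 had 4 (31, 48, 50 and 93 nt) between 31.2% and 87.3% and 5 end peaks.

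**Figure D3:**
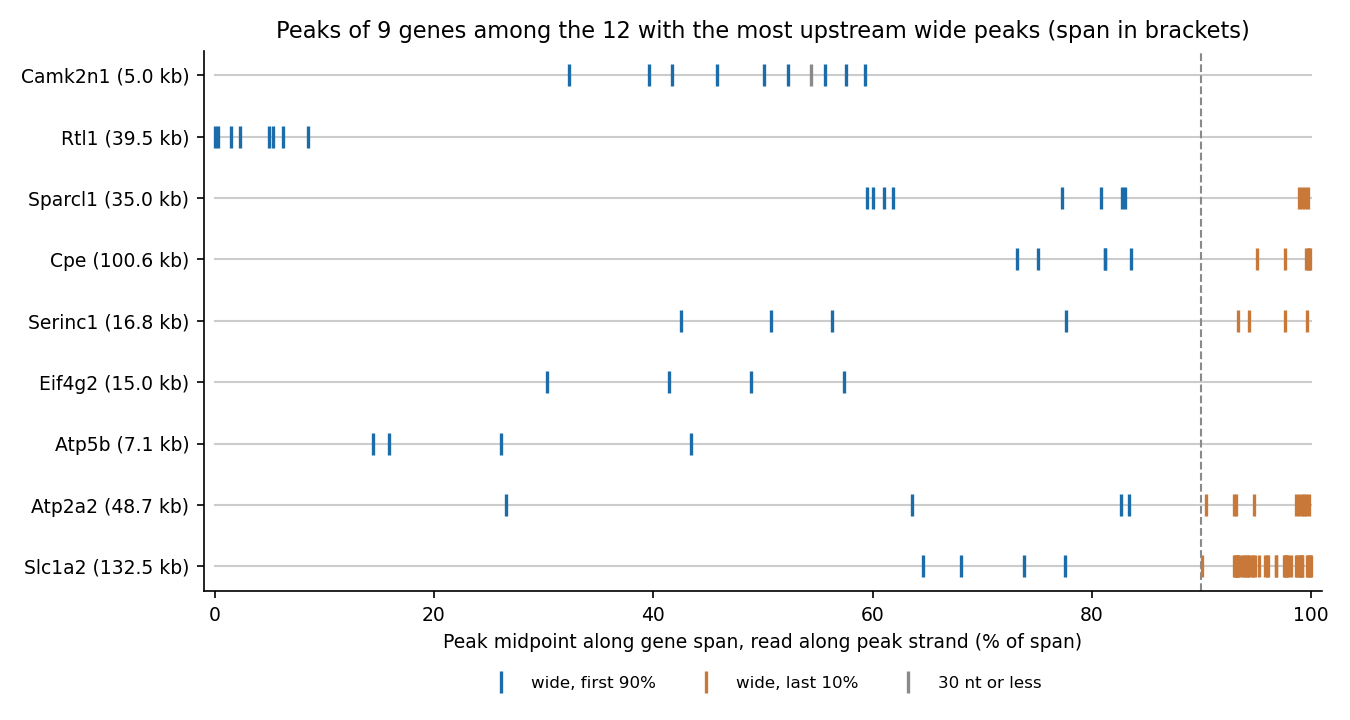
Peaks of 9 genes among the 12 with the most upstream wide peaks, placed by midpoint along the span as read on the peak strand; marks do not show width. The 9 peaks of Camk2n1 form a run between 32.3% and 59.3%, the 8 peaks in Rtl1 lie within 8.52% of the span start, and the 4 of Atp2a2 are spread from 26.6% to 83.4%.

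Neighbouring upstream peaks were farther apart than neighbouring end peaks. The rule itself shapes this contrast, since both peaks of an end pair must lie in the last 10% of a span. Over 119 neighbouring pairs in the same gene and strand the median gap was 612 nt, with 30 gaps under 100 nt, and over 460 pairs of end peaks it was 166 nt, with 181 under 100 nt. The shortest gap was 21 nt in both sets. Peak names carry numbers that run to 14469 in order of position within each chromosome and strand, and the meaning of the numbers is not given in the sources used here. Of pairs with no other listed peak between them, 51 of 114 upstream pairs (44.7%) and 213 of 450 end pairs (47.3%) had consecutive numbers. Between the first and last upstream peak of Camk2n1, 10 of 15 numbers are in the list used here, in Sparcl1 8 of 17, and in Cpe 5 of 7.

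Genes with wide peaks in both places numbered 89, which is 49.4% (exact 95% interval 41.9 to 57.0) of the 180 genes with upstream peaks and 16.8% (13.7 to 20.3) of the 529 with end peaks. For comparison, 0.822% of all protein-coding genes had an upstream peak, 2.42% an end peak and 0.407% both. No RNA level per gene was used here, and the part of gene expression in these shares was not tested. The 89 genes held 168 of the upstream peaks (56.2%). From such a peak to the first end peak of the same gene the median gap was 3988 nt, with 26 of 168 gaps under 1000 nt and the shortest at 23 nt. More than 1 upstream peak was held by 37 of the 89 genes (41.6%) and by 19 of the other 91 (20.9%). Widths were alike, with medians of 73.0 nt in genes with both and 70.0 nt in genes with upstream peaks only.

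The share of end-peak genes that also had an upstream peak depended on span: 27 of 69 (39.1%) for spans up to 10000 nt and 20 of 180 (11.1%) above 100000 nt. Over all protein-coding genes the share with an upstream peak was 0.707% for spans up to 10000 nt, 0.775% from there to 30000 nt, 0.808% to 100000 nt and 1.36% above. Genes with upstream peaks only had a median span of 18003 nt, genes with both 25495 nt, and genes with end peaks only 65342 nt. Of the 91 genes with upstream peaks only, 1 had a narrow peak in the last 10% of its span.

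Ranked by the smaller of their counts, the genes with peaks in both places included Cpe (5 upstream and 6 end). Slc1a2 (4 and 38), Atp2a2 (4 and 10), Sparcl1 (8 and 4), Calm2 (4 and 5) and Serinc1 (4 and 4) were also high, then Ywhae, a 14-3-3 adaptor gene (3 and 4), and Scd2, a fatty acid desaturase gene (3 and 3). Genes rich in end peaks without any upstream peak included Gpm6a (14), Rab6b (10), Mef2c (9) and Snap25 (8).

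**Figure D4:**
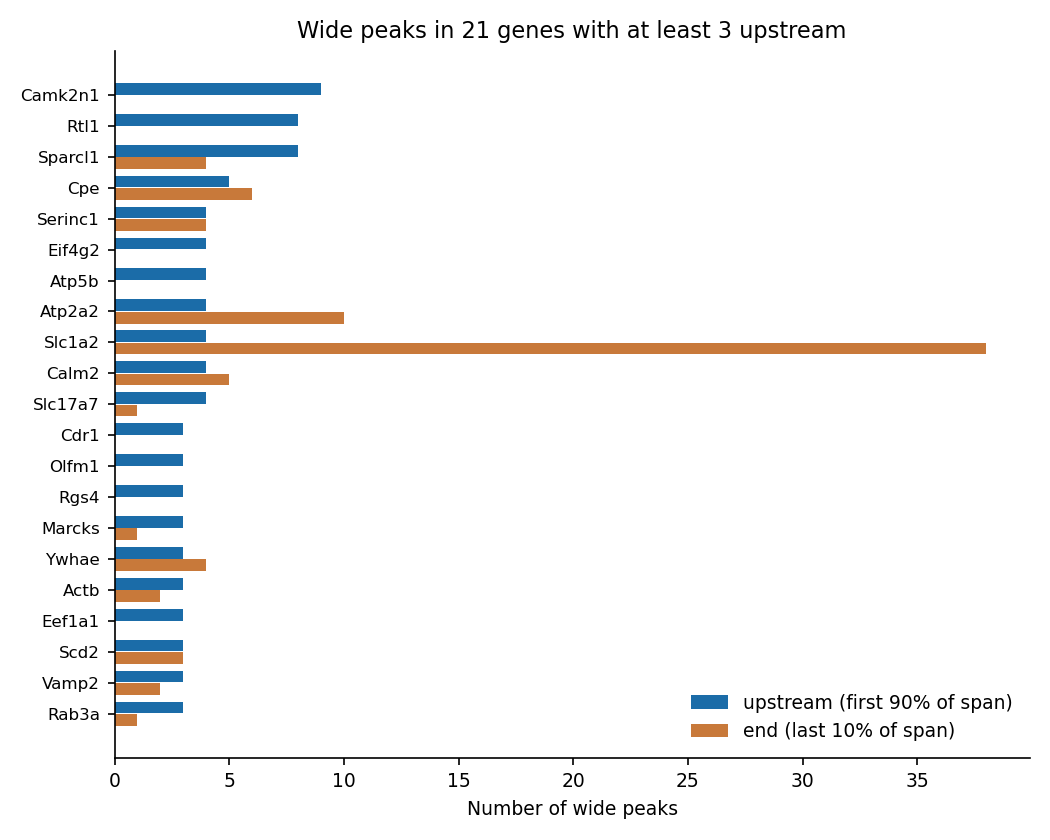
Number of wide peaks in the first 90% (upstream) and the last 10% (end) of the span, for 21 of the 25 genes with at least 3 upstream. Slc1a2 has 38 end peaks beside 4 upstream, while Camk2n1, Rtl1, Eif4g2, Atp5b, Cdr1, Olfm1, Rgs4 and Eef1a1 have 0 end peaks. Positions are read along the peak strand, which for Cdr1 is opposite to the gene and for Rtl1 is the strand of Meg3.

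Gene functions were read from 21 lists of 546 matched genes, 67 of which (12.3%) had an upstream peak, against the 0.822% of all protein-coding genes. Those 67 are 37.2% of the 180 genes. The lists were chosen with earlier results of these data known and were not matched for expression. A list share set beside 0.822% is therefore a description and no test of enrichment. At synapses, 6 of 37 presynaptic genes had an upstream peak, all 6 with end peaks as well. Among them were Vamp2, the vesicle SNARE (3 upstream), Bsn, the active zone scaffold (2, of 127 and 147 nt), and with 1 each the calcium sensor gene Syt1, Syt11 and Snap91. Among postsynaptic genes it was 7 of 30: Shank1, Camk2a and Kalrn with 2 each, and Agap2, Camk2b, Gphn and the PSD-95 gene Dlg4 with 1 each. Shank1, Camk2a and Agap2 had end peaks and the other 4 had none.

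Glutamate and GABA receptor genes had upstream peaks in 2 of 30, Grin1, the obligate NMDA receptor subunit (83 and 141 nt), and Gabbr1, a GABA-B receptor subunit (73 and 139 nt). Neither had an end peak, while 9 other genes of the list did. Ion channel genes had 1 of 30, the sodium channel gene Scn2a, with 1 upstream peak of 58 nt and 5 end peaks. Adhesion and guidance genes had 2 of 40, among them the contactin gene Cntn1 (126 nt, with 1 end peak). These 3 lists have long genes, with median spans of 239201, 274276 and 344752 nt.

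The highest shares were in neuronal cytoskeleton genes (12 of 35, 34.3%) and in pumps and transporters (8 of 24, 33.3%). The cytoskeleton genes with the most were Marcks, an actin and membrane linker (56, 93 and 103 nt), Actb, which encodes beta-actin (64, 89 and 89 nt), Tuba1a (65 and 99 nt) and Dclk1 (57 and 58 nt). Map1a, Map1b, Map2, Ank2, Kif1a, Kif5c, Tubb2a and Tubb3 had 1 each, and 11 of the 12 genes also had end peaks, Tubb3 being the exception. The pumps and transporters included Atp2a2, Slc1a2 and Slc17a7 with 4 each and Slc6a17 and Atp1b1 with 1 each, and 7 of the 8 genes also had end peaks. The 8 genes held 23 upstream peaks, 3 of them within 5000 nt of the span end. In the cytoskeleton list it was 10 of 18 upstream peaks. The order of the lists depended on the boundary. With it at 80%, upstream peaks were in 8 of 35 cytoskeleton genes, 7 of 24 pumps and transporters and 7 of 30 postsynaptic genes.

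Membrane trafficking genes had upstream peaks in 6 of 35: Cpe (5), Rab3a, the Rab protein of synaptic vesicles (37, 56 and 65 nt), Atp6v0a1 (80 and 194 nt), the amyloid precursor gene App (68 and 129 nt), Itm2b (2) and Arf3 (1). The list named for kinase and GTPase signalling had 5 of 49, among them Adcy1 with 2 and Ntrk2, Rtn4 and Prkcb with 1 each. It is broader than its name, since Adcy1 encodes an adenylyl cyclase and Rtn4 a reticulon. Energy metabolism genes had 4 of 22: Atp5b (4), and Ckb, Glul and the glycolytic gene Aldoa with 1 each.

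Translation genes had upstream peaks more often than end peaks, in a list of short genes. Its median span, 5720 nt, was the shortest of the 21 lists, and 4 of its 9 upstream peaks lay within 5000 nt of the span end. The part of span length in this contrast was not tested. Upstream peaks were in 4 of 24 genes of the list, Eif4g2 (4), the elongation factor genes Eef1a1 (52, 56 and 133 nt) and Eef2 (108 nt), and Eef1a2 (60 nt), and none of the 4 had an end peak. End peaks were in 1 of the 24. Oligodendrocyte lineage markers also had more genes with upstream than with end peaks (3 and 2 of 16). These contrasts were not tested, and they rest on few counts. The span of Eef1a1 is 3272 nt, and its 3 peaks lay 570 to 1210 nt from the end of its span. The spans of Eif4g2 and Eef1a2 are longer, at 15046 and 15258 nt, and their peaks lay at 30.3% to 57.4% and at 21.8%. The peak of Eef2 lay at 26.4% of its span.

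Lists of gene regulators had lower shares than the cytoskeleton and pump lists, which were the highest, though above the 0.822% of all protein-coding genes. Low shares were not particular to them. Ion channel genes had 3.33%, adhesion and guidance genes 5.00% and receptor genes 6.67%. Transcription and chromatin genes had 2 of 36 (5.56%), among them the activity-induced gene Egr1 (73 nt, 771 nt from the span end). RNA-binding genes had 2 of 36 (5.56%), Hnrnpa2b1 (48 nt) and the neuronal splicing factor gene Nova2 (39 nt). The miRNA pathway had 1 of 21 (4.76%), the poly(A)-binding protein gene Pabpc1 (58 nt). Ubiquitin and turnover genes had 2 of 24, the chaperone gene Hsp90ab1 (89 and 137 nt) and Fbxo45 (55 nt).

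Marker genes of the labelled cell type and of other cell types were looked up. Glutamatergic neuron markers had an upstream peak in 3 of 18 genes, all 3 with end peaks too and among them Slc17a7 (4) and Camk2a (2), and Slc17a6, Nrgn, Neurod2, Neurod6 and Tbr1 had 0 upstream. GABAergic markers had 0 of 19, microglia markers 0 of 13, and endothelial and mural markers 0 of 13. With 0.822% of all protein-coding genes holding an upstream peak, a 0 in lists this short does not show that those cells are absent, and 2 of the 19 GABAergic markers had end peaks. Astrocyte markers had 3 of 16, among them Slc1a2 (4) and Glul (1), while Slc1a3, Aqp4, Gfap, Aldh1l1 and Gja1 had 0. Oligodendrocyte lineage markers had 3 of 16, among them Cnp (1, of 204 nt) and Mbp (1), while Mog, Mag, Olig2 and Pdgfra had 0. The upstream share was thus 18.8% in the astrocyte and in the oligodendrocyte list and 16.7% in the glutamatergic list. End peaks were in 7 of 18 glutamatergic, 3 of 16 astrocyte and 2 of 16 oligodendrocyte markers. They were in 0 of 13 microglia markers and 0 of 13 endothelial and mural markers. Upstream peaks in myelin and astrocyte genes thus stand beside those in excitatory neuron genes. A peak is no measure of RNA level, and the part of RNA from other cells in them was not tested.

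**Figure D5:**
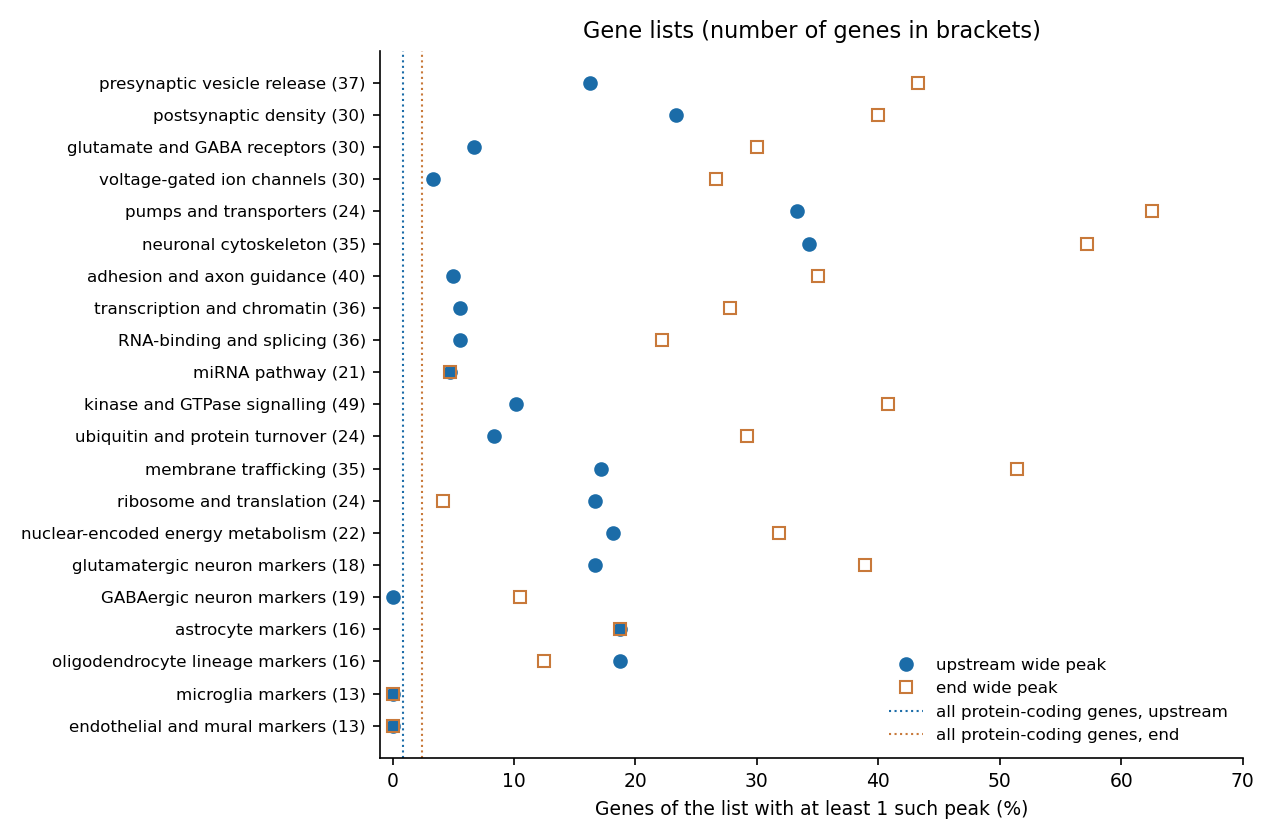
Share of the genes of each list with at least 1 upstream (filled circles) or end (open squares) wide peak; dotted lines mark all protein-coding genes, at 0.822% and 2.42%. Cytoskeleton genes and pumps reach 34.3% and 33.3% upstream, and the translation and oligodendrocyte lists have more genes with upstream than with end peaks (4 and 1 of 24, 3 and 2 of 16).

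Some gene families recurred. Those given here were chosen after their values were seen, are not ranked and are not all the families with several upstream peaks. Over all protein-coding genes the share with an upstream peak was 0.822%, given beside the families as a description and no test. Of 6 genes named as CaMKII subunits or inhibitors 3 had upstream peaks, with 12 peaks, 9 of them in Camk2n1. Others were 4 of 15 tubulins, 4 of 26 genes of the vacuolar proton pump and 2 of 6 genes of 14-3-3 proteins. Upstream peaks were also in 3 of 20 tetraspanins, 2 of 5 Serinc genes and both Cdk5 activators, Cdk5r1 and Cdk5r2. Among the tetraspanins, the 1 peak of Tspan5 ran opposite to its gene. The 2 peaks of Cdk5r2 also lay on the strand of the lncRNA Gm16582. Calm2 and the tubulin, actin and elongation factor genes have near-identical copies or pseudogenes. How reads that match several places were treated is not given in the sources used here, so the assignment of their peaks to 1 gene is uncertain.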

How the data were processed

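Target peaks were deposited as 1 list of positions, names and strands on mm10, with a score that the authors set to 0 for every peak. Per the submitters' processing notes, STAR 2.5.2a and Bowtie2 2.4.2, both aligners, and UMI-tools, cutadapt 2.10, deepTools 3.1.3 and DESeq2 1.36.0 were used, with no role given. The sources used here do not name the peak caller or say how replicates and input entered it. Reads were 100 bp single end and RNA was cut from a gel between 70 and 150 kDa, per the labels' protocols. miRNA values are counts as the authors deposited them, and their file names mark them as not deduplicated. The row that names no miRNA held 0 counts in both files.

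Peaks were placed by midpoint in RefSeq gene spans of GRCm38.p6 (the assembly mm10 holds), positions counted from 1, using Python 3.11.15 and pandas 2.3.3. Gene strand and starts came from the promoter table. Placement was tested on simulated peaks. Shares have exact Clopper-Pearson 95% intervals (scipy 1.17.1), and medians order-statistic intervals, which treat peaks of a gene as independent and cover counting error only. No test was run, since the list has no values per library. The members and gene lists were chosen with earlier results of these data known; 546 of 548 listed genes matched. The text names genes among the 12 with the most upstream peaks and the 10 with both kinds, up to 4 per list, the widest peaks and those nearest to starts and thresholds; other names were chosen after their values were seen, and some genes are not reported here. Planned counts of exons and seed matches were not run, as no exons or genome sequence were used here. Alternatives changed width, position, overlap and strand rules.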

Additional observations from a re-analysis of the deposited data

How the results depend on the processing

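No paired analysis was possible because the peaks form 1 list with no values per library, and leaving out a replicate was not possible for the same reason. The planned checks on exons and seed matches were not run. Over 10 alternatives, 1 of them chosen after seeing the data, 50 of 70 values of the main results were classed as the same and 20 as moved. The class of same values was broad. It held 215 and 418 upstream peaks with the boundary at 80% and 95%, against 299. It also held 60 genes with both kinds when the gene strand was required, against 89. The number of upstream peaks was 533 with a width above 20 nt, 127 beyond 10 kb from the span end and 171 with the gene strand required. Requiring the gene strand leaves out genes of unlisted strand. The 10 kb and 5 kb settings put a distance from the span end in place of the share of the span. They therefore also count end peaks that lie beyond that distance, and their sets are not subsets of the 299. The upstream share of wide peaks was 34.0% above 20 nt, 16.7% and 32.5% with the boundary at 80% and 95%, 9.86% and 18.2% beyond 10 kb and 5 kb, and 18.7% with the gene strand required. Genes with an upstream peak numbered 400 above 20 nt and 82 beyond 10 kb, where 46 genes had both kinds and 44 genes of the lists an upstream peak. The median width was 42.0 nt above 20 nt and 84.0 nt above 50 nt. The median position was 61.6% above 20 nt, 59.3% and 79.5% with the boundary at 80% and 95%, and 60.1% and 75.6% beyond 10 kb and 5 kb. Counts within single gene lists moved in 44 of 210 cases. With so few genes per list, and no depth per peak, small shares of a list are not resolved.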
